A study of Rattus norvegicus with 65 samples.

Results

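The 7 genes described here code for the endogenous opioid system: the peptide precursors Pdyn, Penk and Pnoc and the receptors Oprm1, Oprk1, Oprd1 and Oprl1. They were taken by symbol from the 38513 genes of the deposited table, and each symbol matched 1 gene. RNA was measured by sequencing in whole hypothalamus of 65 male Wistar rats, 1 library per animal. The rats were 9 to 10 weeks old at the start, and obesity was induced by 6 weeks of high-fat diet before the interventions. Animals were killed 4 weeks into the intervention, having fasted for 10 h.

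Roux-en-Y gastric bypass (RYGB, n = 14), which joins a small gastric pouch to the small intestine, was set against a sham operation (n = 11) and against sham-operated animals held by food restriction to a body weight course like that after RYGB (BWM, n = 7). Liraglutide, a GLP-1 receptor agonist, was injected at 0.4 mg/kg/day (n = 5). The gut peptide PYY3-36 was infused from a minipump at 0.1 mg/kg/day (n = 4). Both were given together in the PYY3-36 + liraglutide group (n = 10), and saline animals received neither (n = 8). The lean group (n = 6) is labelled by that word alone and was taken to be the animals kept on low-fat diet. Treated, saline, sham and RYGB animals chose freely between high- and low-fat diet after the intervention. Butorphanol, itself an opioid, was given for RYGB and sham surgery. The experiments ran in a pair of periods, batch A (37 animals) and batch B (28 animals). Lean and BWM animals were in batch A only, and PYY3-36 and liraglutide animals in batch B only.

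Opioid peptides are cut from larger precursors. Pdyn codes for prodynorphin, the source of dynorphins, Penk for proenkephalin, the source of enkephalins, and Pnoc for prepronociceptin, the source of nociceptin. Dynorphins act mainly on the kappa receptor (Oprk1), enkephalins on the delta (Oprd1) and mu (Oprm1) receptors, and nociceptin on its own receptor (Oprl1). All 4 receptors couple to inhibitory G proteins, which lower cyclic AMP, open potassium channels and close calcium channels. In the hypothalamus the system is known for its part in feeding, reward, stress and hormone release.

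In the rat genome Rnor_6.0, Pdyn (gene9716) lies on the minus strand of chromosome 3 from 122194327 to 122206671 and Penk (gene13250) on the minus strand of chromosome 5 from 17056412 to 17061762. Pnoc (gene31243) lies on the minus strand of chromosome 15 from 48805841 to 48833071. Oprm1 (gene484) lies on the plus strand of chromosome 1 from 43454803 to 43704948, and another gene model overlaps it on the same strand. Oprk1 (gene13220) lies on the minus strand of chromosome 5 from 13742655 to 13760460, Oprd1 (gene14745) on the minus strand of chromosome 5 from 150288126 to 150323063, and Oprl1 (gene10678) on the plus strand of chromosome 3 from 177223779 to 177231663.

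The start regions of Pdyn and Oprd1 are shown because their windows held one of the motifs searched. The RefSeq table of start regions used here (assembly GRCr8) matched 3 of the 7 genes, Pdyn, Oprd1 and Oprm1. The windows hold the 250 bases before the annotated start, 5′ to 3′ on the strand of the gene. Capitals mark TATAAA and GGGCGG, searched on both strands, and the reverse complement of GGGCGG reads CCGCCC.
Pdyn, GRCr8 chr3:137366504-137366753, minus strand: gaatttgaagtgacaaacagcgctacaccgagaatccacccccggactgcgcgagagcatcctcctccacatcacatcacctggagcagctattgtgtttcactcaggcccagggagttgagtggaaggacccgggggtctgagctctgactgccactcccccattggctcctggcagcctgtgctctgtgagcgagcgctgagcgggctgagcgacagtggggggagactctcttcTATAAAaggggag
Oprd1, GRCr8 chr5:149625000-149625249, minus strand: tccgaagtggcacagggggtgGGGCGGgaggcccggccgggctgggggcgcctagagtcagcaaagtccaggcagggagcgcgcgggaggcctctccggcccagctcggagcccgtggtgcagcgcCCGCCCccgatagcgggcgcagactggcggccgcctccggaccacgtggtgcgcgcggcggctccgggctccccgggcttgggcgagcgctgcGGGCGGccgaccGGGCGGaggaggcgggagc
The Pdyn window held 1 TATAAA and no GGGCGG, and 59.2% of its bases were G or C. The Oprd1 window held 4 GGGCGG and no TATAAA, with 79.6% G or C. Oprm1 had 2 starts in that table, and their windows, with 58.4% and 36.4% G or C, held neither motif. Of 33469 windows of the same length, 12.9% held TATAAA and 30.5% held GGGCGG, and the median share of G and C was 51.2%. A match is a run of letters and was not tested as a binding site.

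Per kb of exon, Penk was the most abundant of the 7 genes and Oprm1 the least. Levels were compared between genes as CPM, the TMM-scaled share of a library's counts, divided by the exon length in kilobases. The median over the 65 libraries was 181 CPM per kb for Penk, 38.2 for Pdyn and 17.1 for Pnoc. Among the receptors it was 7.80 for Oprl1, 3.35 for Oprk1, 0.384 for Oprd1 and 0.183 for Oprm1. The 3 precursors therefore lay above all 4 receptors, and the nociceptin and kappa receptors lay above the delta and mu receptors. Penk exceeded 98.3% and Oprm1 13.1% of the 21871 genes tested. All 7 genes passed the filter on low counts.

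The depth behind these levels was unequal. Libraries held between 20041010 and 36539941 counts. The median count was 7924 for Penk and 905 for Oprl1, but 23 for Oprm1 and 15 for Oprd1. Oprm1 was under 10 counts in 18 libraries and at 0 in 2, and Oprd1 was under 10 counts in 21 and at 0 in 3. A count of 0 allows up to 3 counts in that library. Differences of the mu and delta receptors are therefore imprecise, and the biological coefficient of variation was 0.874 for Oprm1 and 0.699 for Oprd1 against 0.334 for Oprl1.

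The tissue was checked against markers. All 18 hypothalamic marker genes passed the filter, with a median summed level of 2000 CPM per library. That sum ran from 60.9 to 8510 CPM. BWM replicate 1, sham replicate 10 and sham replicate 6 had the highest striatum scores (the mean log2 CPM of a marker list) of the 65 libraries, with 4540, 4120 and 3690 CPM summed over 12 striatal marker genes against a median of 373. Their hypothalamic sums were 192, 180 and 231 CPM. Lower sums were found in PYY3-36 replicate 2 (60.9 CPM), lean replicate 2 (88.7), sham replicate 2 (88.7) and saline replicate 4 (90.4). Their cortex sums were 798, 911, 1960 and 1320 CPM. Lean replicate 5 and liraglutide replicates 3 and 4 had hypothalamic sums of 183, 212 and 180 CPM. Markers of cortex, thalamus, habenula, pituitary or choroid plexus stood apart in other libraries. In a bulk sample, fewer cells of a type and less RNA per cell cannot be told apart. The 3 libraries of highest striatum score were left out in a further fit, a choice made after seeing the data, and the other libraries named were kept. Leaving out these 3 moved the log2 fold change of sham vs. saline from 0.70 to 0.12 for Penk and from -1.09 to -1.76 for Oprd1. It moved BWM vs. sham from 0.96 to 0.26 for Oprd1, and none of these values was called with or without them.

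Prodynorphin RNA did not pass the test in any of the 8 comparisons. In sham animals Pdyn ran from 16.1 to 247 CPM with a median of 121.6, and in RYGB animals from 34.7 to 189 CPM with a median of 95.4. Both ranges pool the batches. Within batch A the medians were 92.1 CPM in RYGB and 85.6 CPM in sham animals, and within batch B 96.0 and 124.8 CPM. The groups overlapped, and the fitted log2 fold change of RYGB vs. sham over both batches was -0.21 ± 0.32 (SE, edgeR adjusted p = 0.69). Without the 3 libraries of highest striatum score it was 0.01. Within batch A alone it was 0.05 (edgeR p = 0.904 before adjustment), and within batch B -0.51 (p = 0.363). BWM animals ran from 46.2 to 191 CPM with a median of 66.8, and the value of 191 belonged to BWM replicate 1. In the saline group of batch B, 2 animals were at 186 and 197 CPM and the other 3 between 19.5 and 45.6 CPM.

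**Figure D1:**
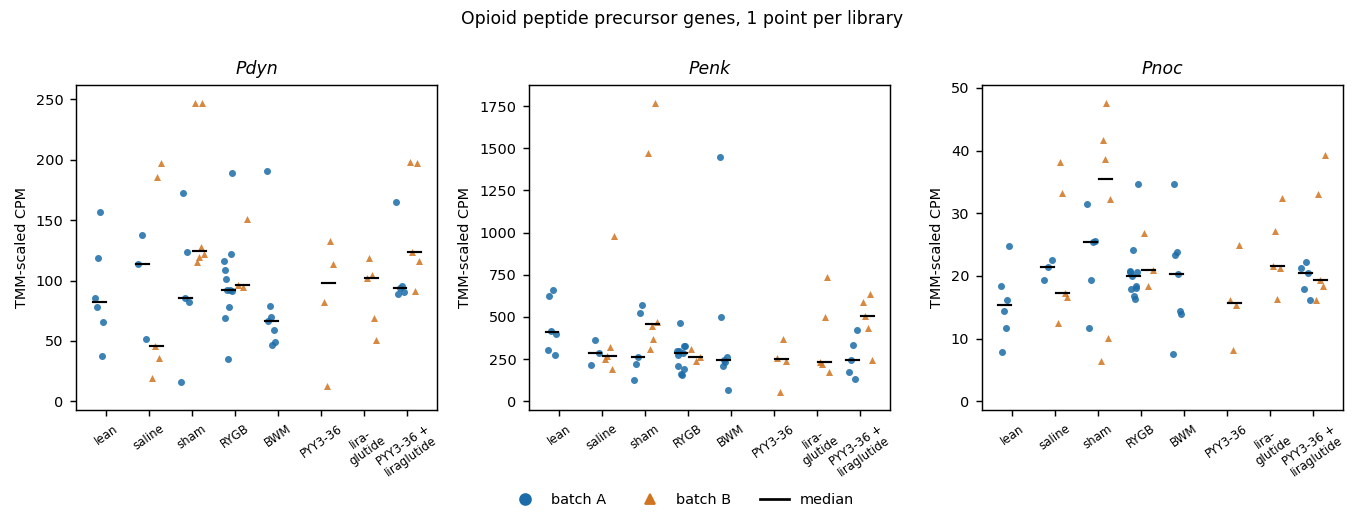
TMM-scaled CPM of the 3 precursor genes on linear axes, by group, with 1 point per library, circles for batch A, triangles for batch B and a bar at the median of each group in each batch. For Penk, BWM replicate 1 and sham replicates 6 and 10 lie at 1447, 1469 and 1769 CPM, above all other libraries.

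Proenkephalin RNA varied most among the precursors, and its highest values came from few libraries. In RYGB animals Penk ran from 157 to 463 CPM with a median of 279, and in sham animals from 126 to 1769 CPM with a median of 445.5. Of 14 RYGB animals, 1 lay above the sham median of both batches together, and the ranges overlapped. Within batch A, 7 of 11 RYGB animals lay above the median of the 5 sham animals, 264 CPM. The log2 fold change of RYGB vs. sham, fitted over both batches, was -0.77 ± 0.36 (SE, edgeR adjusted p = 0.14), which did not pass. In batch B, RYGB animals were at 308, 240 and 260 CPM and the 6 sham animals at 312 to 1769 CPM, so that the groups did not overlap (2.72% of all genes were called there, and Penk was not). The share of all genes without overlap in that batch is not given here, so the separation of Penk has no background to be read against. Within that batch the log2 fold change was -1.57 (edgeR p = 0.0157 before adjustment), and within batch A it was -0.32 (p = 0.465). The difference between the batches, -1.25, did not pass either (p = 0.105). Without the 3 libraries of highest striatum score the RYGB vs. sham value was -0.33 (edgeR adjusted p = 0.49), and with striatum, thalamus and habenula scores in the model it was -0.15 (adjusted p = 0.66).

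Penk was also the one opioid gene called between the batches. It was higher in batch B by 0.71 ± 0.28 on the log2 scale (edgeR adjusted p = 0.039), in a comparison that called 40.7% of all genes tested. The call was lost without the 3 libraries named above (0.42, adjusted p = 0.15). It was also lost in 12 of 65 fits that left out 1 animal (lowest 0.58): PYY3-36 + liraglutide replicates 1, 2, 4, 6 and 9, saline replicates 1 and 8, and sham replicates 1, 2, 3, 6 and 10. Among sham animals the difference between batches was 1.23 (p = 0.0199 before adjustment), and in RYGB animals it was -0.02.

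Prepronociceptin RNA was the steadiest of the precursors. In RYGB animals Pnoc ran from 16.3 to 34.7 CPM with a median of 20.3, and in sham animals from 6.47 to 47.6 CPM with a median of 25.6. The lowest sham values, 6.47 and 10.1 CPM, came from replicates 6 and 10, the libraries with the highest Penk. The fitted difference of RYGB vs. sham was -0.23 ± 0.23 (SE, edgeR adjusted p = 0.53), and -0.40 without the 3 libraries of highest striatum score (adjusted p = 0.17). Lean animals had 7.91 to 24.8 CPM with a median of 15.3, and lean vs. sham gave -0.61 ± 0.30 (SE, adjusted p = 0.40).

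The nociceptin receptor was the one opioid gene called among the 8 comparisons of groups. In RYGB animals Oprl1 ran from 24.2 to 65.2 CPM with a median of 41.2, and in sham animals from 8.96 to 42.8 CPM with a median of 23.5. All 14 RYGB animals lay above the sham median of both batches together and 7 lay above every sham animal, though the ranges overlapped. Within batch A, 7 of 11 RYGB animals lay above the median of the 5 sham animals and 6 above all of them. Within batch B all 3 RYGB animals lay above the sham median. In the fit over both batches Oprl1 was higher by 0.69 ± 0.20 on the log2 scale (SE, 95% interval 0.29 to 1.10, edgeR adjusted p = 0.020). Of all genes tested in RYGB vs. sham, 13% were called (2853 of 21871), 6.52% higher and 6.53% lower, so that 1 of 7 is near that background. At an unadjusted p under 0.05 there were 3 of 7 opioid genes (Oprl1, Oprd1 and Penk) and 30.0% of all genes.

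The call for Oprl1 held in each of 25 fits that left out 1 RYGB or sham animal (0.62 to 0.81, edgeR adjusted p from 0.0054 to 0.047), but not under every other setting. The difference had the same direction within each batch, at 0.63 in A (p = 0.0233 before adjustment) and 0.94 in B (p = 0.00683), where RYGB animals were at 48.6, 44.2 and 38.3 CPM and sham animals at 8.96 to 42.8 CPM. Neither passed after adjustment (edgeR adjusted p = 0.13 and 0.091). Sham replicates 6 and 10 held 10.1 and 8.96 CPM, the lowest of all libraries. Without the 3 libraries of highest striatum score the value was 0.54 (edgeR adjusted p = 0.057), and with striatum, thalamus and habenula scores in the model it was 0.64 (adjusted p = 0.026). That model held neither the hypothalamus nor the cortex score, so it does not adjust for these.

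Marker lists of the tissues around were set beside this difference. The median log2 fold change of RYGB vs. sham was -1.01 over 12 striatal genes (0 called higher, and Foxp1 lower), 1.31 over 8 choroid plexus genes (Kl higher, 0 lower), 1.34 over 9 entries of 8 meningeal genes (0 called) and 0.10 over 18 hypothalamic genes (0 called), against -0.02 over all genes. Ogn had 2 entries, and both were counted in the meningeal median, sum and score. The summed striatal level ran from 196 to 571 CPM in RYGB animals and from 163 to 4120 CPM in sham animals, with medians of 316 and 511. The meningeal sum ran from 111 to 3300 CPM and from 69 to 1120 CPM, with medians of 332 and 136. Relative to group and batch means, as described below, Oprl1 gave r = -0.01 with the choroid plexus score and 0.04 with the meninges score. It gave 0.65 with the hypothalamus, -0.42 with the striatum and -0.38 with the cortex score. The part of choroid plexus and meninges in the Oprl1 difference was not tested.

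Oprl1 of RYGB animals was also compared with BWM and saline animals, and neither comparison passed. BWM animals ran from 15.2 to 45.5 CPM with a median of 24, and all 14 RYGB animals lay above that median. The log2 fold change of RYGB vs. BWM was 0.72 ± 0.23 (SE, edgeR adjusted p = 0.22), and it passed once BWM replicate 4, at 45.5 CPM, was left out (0.93, adjusted p = 0.048). It was -0.03 ± 0.25 for BWM vs. sham (95% interval -0.53 to 0.46). Saline animals ran from 19.5 to 53.2 CPM with a median of 32.4, and RYGB vs. saline gave 0.30 (edgeR adjusted p = 1.0, with 0.00457% of all genes called). In batch A the 3 saline animals were at 40.4, 53.2 and 34.1 CPM, and of 11 RYGB animals 3 lay above all of them and 5 below all of them (-0.05, edgeR p = 0.885 before adjustment). In batch B the 3 RYGB animals lay above all 5 saline animals, which ran from 19.5 to 34.2 CPM (0.76, edgeR p = 0.0339 before adjustment, adjusted p = 0.46). In that comparison 0.0% of all genes were called by edgeR, and 10.6% had an unadjusted p under 0.05. The share of all genes without overlap there is not given here. The difference between the batches, 0.80, did not pass (p = 0.0906).

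**Figure D2:**
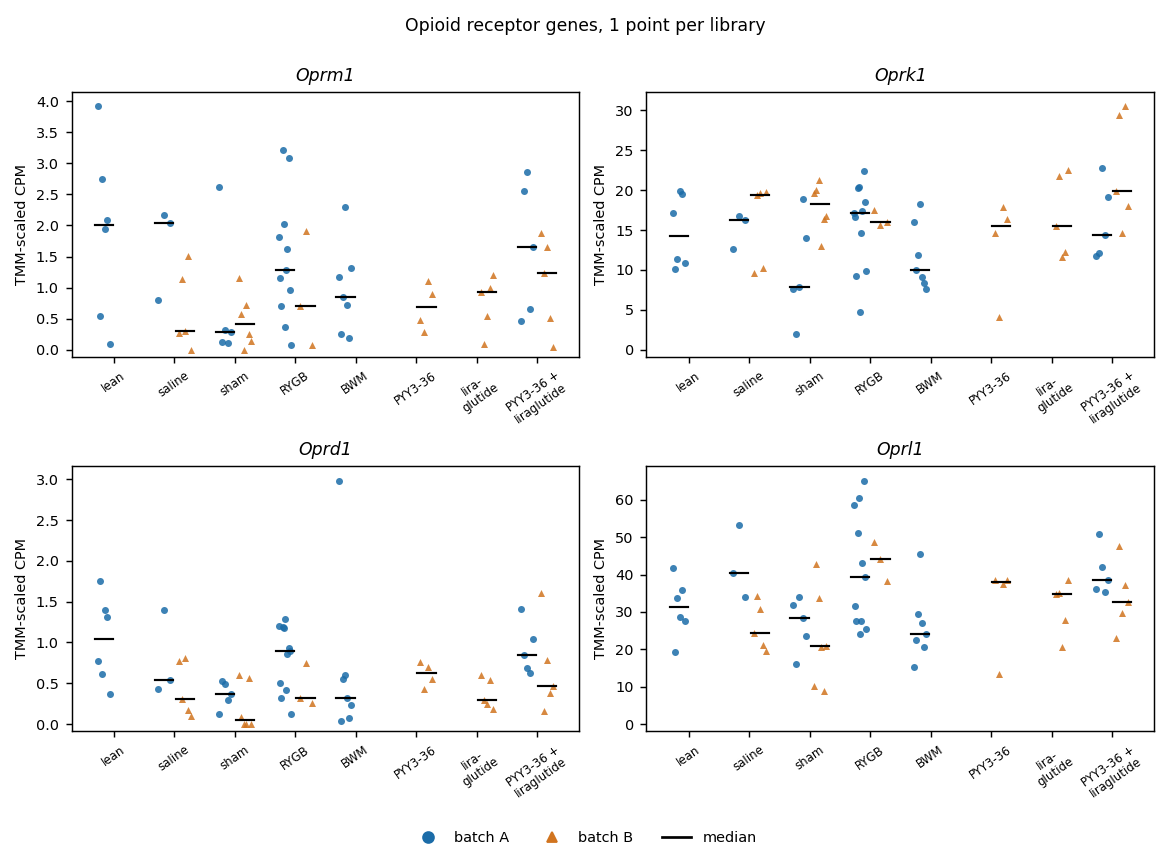
TMM-scaled CPM of the 4 receptor genes on linear axes, by group, with 1 point per library, circles for batch A, triangles for batch B and a bar at the median of each group in each batch. Oprl1 of all 14 RYGB animals lies above 23.5 CPM, the sham median of both batches together. Within batch A, 7 of 11 lie above the sham median of that batch. Oprm1 and Oprd1 stay under 4 CPM in every library.

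The delta receptor was low in sham animals, but its counts were few. Oprd1 ran from 0 to 0.604 CPM in sham animals with a median of 0.291, and from 0.124 to 1.29 CPM in RYGB animals with a median of 0.804. Of 14 RYGB animals, 8 lay above every sham animal of both batches together. Within batch A, 7 of 11 lay above all sham animals of that batch, and within batch B 1 of 3. The log2 fold change over both batches was 1.17 ± 0.49 (SE, edgeR adjusted p = 0.098), which did not pass. Within batch A it was 1.17 (edgeR p = 0.078 before adjustment, adjusted p = 0.26). Within batch B it was 1.11 (p = 0.199, adjusted p = 0.47). The value over both batches passed without the 3 libraries of highest striatum score (1.70, adjusted p = 0.015), with the striatum, thalamus and habenula scores in the model (1.65, adjusted p = 0.017) and without the batch term (1.38, adjusted p = 0.032).

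Lean animals had Oprd1 at 0.367 to 1.75 CPM with a median of 1.04, and 5 of 6 lay above every sham animal. Lean vs. sham gave 1.55 ± 0.59 (SE, edgeR adjusted p = 0.30), in a comparison in which 0 genes were called by edgeR, 4 by DESeq2, and 2674 had an unadjusted p under 0.05. BWM replicate 1 held 2.98 CPM of Oprd1, while the other 6 BWM animals were at 0.0363 to 0.599 CPM. Among all 28 pairs of groups, Oprd1 was called once, with PYY3-36 + liraglutide higher than sham by 1.52 on the log2 scale (edgeR adjusted p = 0.034), where 14.7% of all genes were called.

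The mu receptor, the main target of morphine, had the lowest level per kb of exon of the 7 genes. Oprm1 ran from 0 to 2.61 CPM in sham animals with a median of 0.291, and from 0.0752 to 3.22 CPM in RYGB animals with a median of 1.22. The ranges overlapped, and the log2 fold change was 0.98 ± 0.57 (SE, 95% interval -0.16 to 2.12, edgeR adjusted p = 0.24). It was 1.64 without sham replicate 1 (adjusted p = 0.059) and 0.76 without RYGB replicate 13 (adjusted p = 0.43), the extremes of the 25 fits that left out 1 animal. Within batch A alone the log2 fold change was 1.09 (edgeR p = 0.155 before adjustment), and within batch B 0.93 (p = 0.336). Sham replicate 1, which also stood apart by its thalamic markers, held 2.61 CPM, and the other 10 sham animals held at most 1.15 CPM.

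The kappa receptor was not called in any comparison of groups. Oprk1 ran from 4.77 to 22.4 CPM in RYGB animals with a median of 16.9 and from 2.02 to 21.3 CPM in sham animals with a median of 16.4. The log2 fold change was 0.31 ± 0.24 (SE, edgeR adjusted p = 0.39). Within batch A, where the 5 sham animals were at 7.64, 2.02, 7.87, 18.9 and 13.96 CPM, it was 0.63 (p = 0.0467 before adjustment), and within batch B it was -0.11 (p = 0.772). The difference between the batches was -0.74 (p = 0.145).

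**Figure D3:**
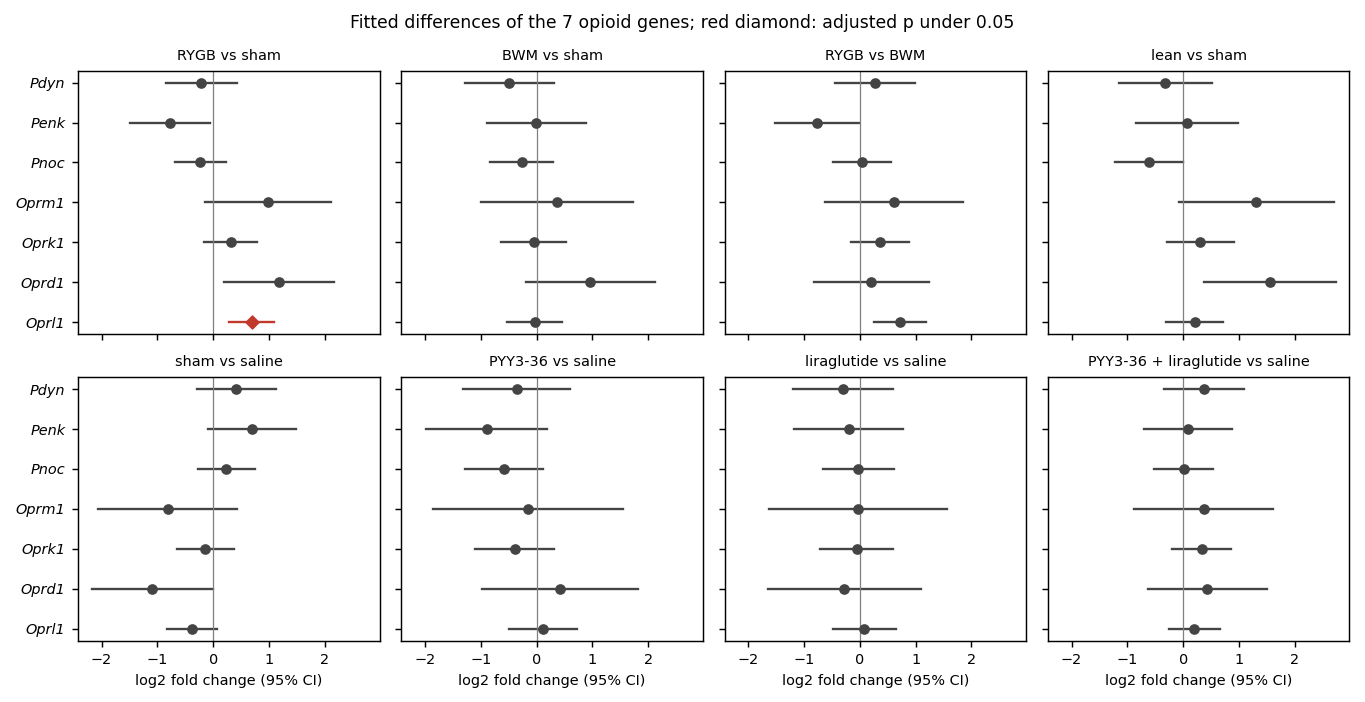
Fitted log2 fold change of each opioid gene (points) with its 95% confidence interval (lines) in the 8 comparisons, on a shared axis. Oprl1 in RYGB vs. sham, at 0.69, is the one value drawn as a red diamond, with an adjusted p under 0.05.

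No opioid gene passed the test after hormone treatment. After liraglutide the 7 log2 fold changes lay between -0.30 (Pdyn) and 0.08 (Oprl1), and after PYY3-36 between -0.90 (Penk) and 0.43 (Oprd1). After PYY3-36 + liraglutide all 7 fitted values were above 0, from 0.01 (Pnoc) to 0.43 (Oprd1), but within batch A 3 of 7 were. These comparisons share the saline animals. edgeR called 0 genes for PYY3-36 (1649 at an unadjusted p under 0.05, 4 called by DESeq2), 0 for liraglutide (456, and 3 by DESeq2) and 1 for the combination, or 0.00457% of all genes. The intervals remain wide: for Oprm1 after liraglutide the 95% interval ran from -1.63 to 1.57. In PYY3-36 replicate 2 the hypothalamic marker sum was 60.9 CPM, and all 7 opioid genes were the lowest of the 4 animals there, with Pdyn at 12.9, Penk at 52.5, Oprk1 at 4.08 and Oprl1 at 13.4 CPM. In batch B, the interaction of PYY3-36 and liraglutide ran from -0.18 (Oprl1) to 1.19 (Penk), and none of the 7 genes was called.

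Food restriction to a matched weight was not accompanied by a called opioid gene. BWM vs. sham gave log2 fold changes from -0.49 ± 0.40 (Pdyn, SE, edgeR adjusted p = 0.66) to 0.96 ± 0.58 (Oprd1, adjusted p = 0.51), with 0.32% of all genes called. Without BWM replicate 1 the value for Oprd1 turned to -0.20 (edgeR adjusted p = 0.91), and that for Penk was -0.74 (adjusted p = 0.36). Without that library, RYGB vs. BWM moved from -0.77 to -0.03 for Penk and from 0.21 to 1.37 for Oprd1 on the log2 scale, and neither passed (0.343% of all genes called with that library).

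Sham-operated and saline animals were compared as well. Sham vs. saline gave log2 fold changes from -1.09 ± 0.54 (Oprd1, SE, edgeR adjusted p = 0.39) to 0.70 ± 0.39 (Penk, adjusted p = 0.45), and none of the 7 passed. Here 0.0137% of all genes were called. For Oprl1, sham vs. saline gave -0.39 ± 0.22 (SE, edgeR adjusted p = 0.46). Within batch A it was -0.67 (edgeR p = 0.0584 before adjustment), and all 5 sham animals lay below all 3 saline animals. In that batch 0.0% of all genes were called, and 14.3% had an unadjusted p under 0.05. The share of all genes without overlap in that comparison is not given here, so the separation has no background to be read against. Within batch B it was -0.18 (p = 0.544 before adjustment). Over all 8 groups together 3.76% of genes were called and none of the 7. The smallest adjusted p of the 7 was 0.12, for Oprl1, and it was 0.048 without sham replicate 7.

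In the order of fitted levels, no pair of neighbouring groups passed the test for any of the 7 genes. Oprl1 was highest after RYGB (5.34 log2 CPM), then in PYY3-36 + liraglutide, PYY3-36, liraglutide, saline, lean, sham (4.65) and BWM (4.61). Penk was highest in lean (9.11 log2 CPM), sham and BWM animals and lowest in PYY3-36 animals (7.44). The place of sham and BWM turned on few libraries, since without the 3 of highest striatum score Penk lay 0.12 above saline in sham and at -0.25 against saline in BWM, from 0.70 and 0.69 with them. Oprd1 was lowest in sham animals (-1.81 log2 CPM) and highest in lean animals (-0.26).

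**Figure D4:**
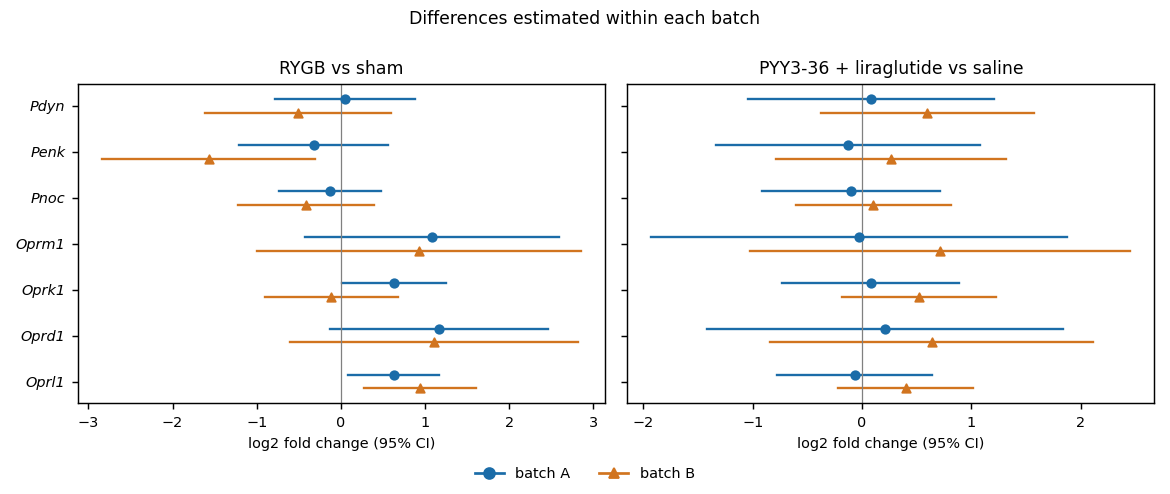
Log2 fold changes with 95% confidence intervals, estimated within batch A (circles) and batch B (triangles), for the 2 treatments present in both batches. Oprl1 in RYGB vs. sham lies above 0 in both batches, at 0.63 and 0.94, and Penk lies at -0.32 and -1.57.

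Genes that process, degrade or transmit opioid signals were counted by list. RYGB vs. sham was the one comparison with calls in these lists. Of 8 genes of precursor processing, such as the convertases Pcsk1 and Pcsk2, 0 were called by edgeR. Of 9 peptidases, 1 was called higher and 1 lower: Ece1, endothelin-converting enzyme, by 0.66 ± 0.17 (SE, adjusted p = 0.0080), and Thop1, thimet oligopeptidase, by -0.33 ± 0.08 (SE, adjusted p = 0.0094). Of 20 G protein and effector genes, Gnai3, an inhibitory alpha subunit, was higher by 0.25 ± 0.09 (SE, adjusted p = 0.044) and Gnb2, a beta subunit, lower by -0.29 ± 0.07 (SE, adjusted p = 0.0054). Of 13 desensitization genes, 0 were called. Of 8 other related genes, Ogfr, the opioid growth factor receptor, differed by -0.26 ± 0.07 (SE, adjusted p = 0.0080) and Crebbp, a transcriptional coactivator, by -0.18 ± 0.06 (SE, adjusted p = 0.044). The background in this comparison was 13% of all genes. The median log2 fold changes of the lists lay between -0.09 and 0.20, and that of all genes was -0.02. Pomc, the precursor of beta-endorphin, gave 0.08 ± 0.93 (SE, adjusted p = 0.97).

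Within groups, the opioid genes followed regional markers. Levels were set relative to the mean of each group in each batch, and 98 relations between the 7 genes and 14 marker scores were computed over 65 libraries, with permutations of libraries inside each group and batch. Penk followed the striatum score (r = 0.81, rho = 0.80, permutation p = 1e-05 for both, the smallest possible, Benjamini-Hochberg adjusted p = 0.00033 and 0.00049), and r was 0.75 without the 2 farthest libraries, 0.79 in batch A and 0.83 in batch B. Pdyn did so less closely (r = 0.42, rho = 0.41, permutation p = 0.00089 and 0.0021, adjusted p = 0.011 and 0.026), with r = 0.34 without the 2 farthest libraries, 0.43 in batch A and 0.41 in batch B. Medium spiny neurons of the striatum are known for both precursors.

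Pnoc and Oprl1, the nociceptin precursor and receptor, followed the hypothalamus score, and so did Oprk1, less closely. For Pnoc r was 0.67 and rho 0.55 (permutation p = 1e-05 and 7e-05, adjusted p = 0.00033 and 0.0017), with r = 0.62 without the 2 farthest libraries, 0.55 in batch A and 0.80 in batch B. For Oprl1 r was 0.65 and rho 0.59 (permutation p = 1e-05 for both, adjusted p = 0.00033 and 0.00049), with r = 0.62 without the 2 farthest libraries, 0.50 in batch A and 0.82 in batch B. Oprm1 followed the habenula score (r = 0.52, rho = 0.55, permutation p = 4e-05 and 5e-05, adjusted p = 0.00078 and 0.0016), with r = 0.48 without the 2 farthest libraries, 0.47 in batch A and 0.57 in batch B. As background, the medial habenula is a known site of dense mu receptor expression. Habenula markers stood apart only in saline replicates 5 and 7 (sums of 191 and 354 CPM), which held 1.14 and 1.51 CPM of Oprm1. The highest Oprm1, 3.92 CPM in lean replicate 1, came with a habenula sum of 23.3 CPM. Among the markers, Gpr151 and Pou4f1 had median counts of 2 and 1. Whether habenular tissue underlies the relation was not tested. Oprk1 was lower where the cortex score was higher (r = -0.66, rho = -0.50, permutation p = 3e-05 and 0.00031, adjusted p = 0.00073 and 0.0061), with r = -0.51 without the 2 farthest libraries, -0.70 in batch A and -0.57 in batch B. Beyond the models with scores and without libraries given above, the part of tissue composition in the differences between groups was not tested.

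**Figure D5:**
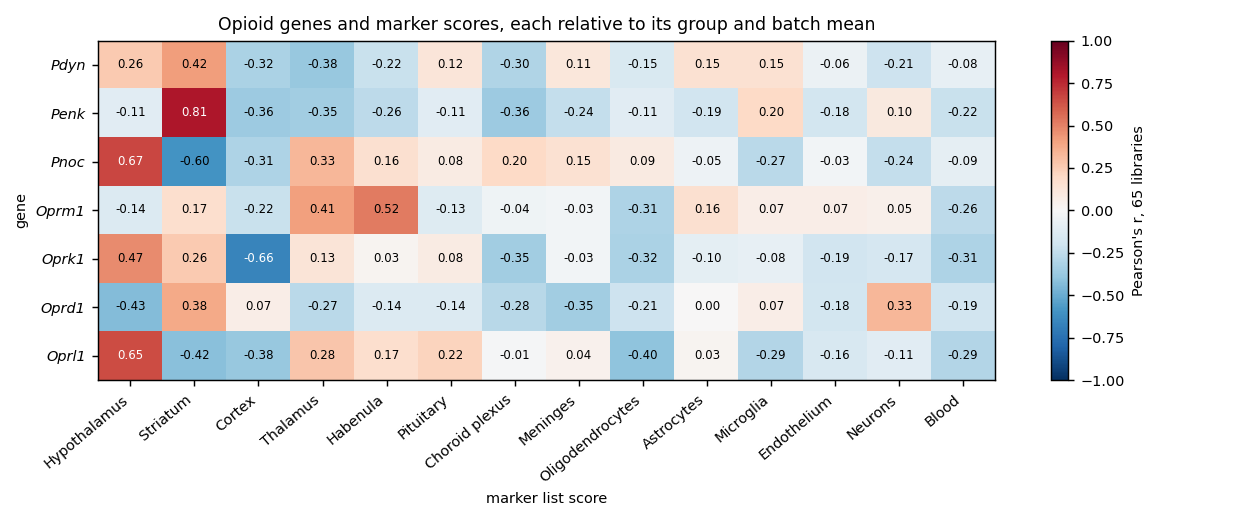
Pearson's r between each opioid gene and each marker score over 65 libraries, both relative to the mean of their group in their batch, with red for positive and blue for negative values. Penk with the striatum score, at 0.81, is the strongest cell.

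Between members, 21 relations were computed in the same way, and 6 passed for both r and rho. Pdyn and Penk varied together (r = 0.61, rho = 0.57, permutation p = 1e-05 and 4e-05, adjusted p = 0.00011 and 0.00028), with r = 0.59 without the 2 farthest libraries, 0.53 in batch A and 0.70 in batch B. So did Pnoc and Oprl1 (r = 0.65, rho = 0.58, permutation p = 2e-05 for both, adjusted p = 0.00014 and 0.00021), with r = 0.59 without the 2 farthest libraries, 0.40 in batch A and 0.82 in batch B. Oprk1 and Oprl1 varied together too (r = 0.55, rho = 0.56, permutation p = 1e-05 for both, adjusted p = 0.00011 and 0.00021), and r was 0.52 without the 2 farthest libraries, 0.56 in batch A and 0.58 in batch B. Pnoc and Oprd1 ran in opposite directions (r = -0.59, rho = -0.36, permutation p = 0.00027 and 0.0124, adjusted p = 0.0014 and 0.037), with r = -0.47 without the 2 farthest libraries, -0.59 in batch A and -0.60 in batch B. Penk and Oprk1 also passed (r = 0.39, rho = 0.34, permutation p = 0.0048 and 0.012, adjusted p = 0.020 and 0.037), with r = 0.40 without the 2 farthest libraries. So did Pdyn and Oprd1 (r = 0.29, rho = 0.33, permutation p = 0.016 and 0.017, adjusted p = 0.049 and 0.044), with r = 0.20 without the 2 farthest libraries. Pdyn and its receptor Oprk1 passed for rho only, with r = 0.37 and rho = 0.37 (permutation p = 0.037 and 0.0083, adjusted p = 0.070 and 0.035), and r was 0.48 without the 2 farthest libraries, 0.16 in batch A and 0.69 in batch B. Penk and Oprd1 passed for neither, with r = 0.35 and rho = 0.27 (permutation p = 0.029 and 0.046, adjusted p = 0.068 and 0.097), and r was 0.19 without the 2 farthest libraries, 0.32 in batch A and 0.38 in batch B.

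Genes most like each member were sought among 17313 genes of at least 1 CPM, by Pearson's r over the same 65 values. They are a description, since the highest of many values was taken. For Penk they were Rgs9 (0.87), Gpr6 (0.86) and Slc35d3 (0.84), and Rgs9 is both one of the 12 striatal markers and one of the desensitization genes. For Pdyn they were Arg2 (0.65), Tac1 (0.65), the substance P precursor, and Rxrg (0.63). For Pnoc they were Nol3 (0.87), Cd83 (0.86) and Trpv2 (0.85). For Oprl1 they were Disp2 (0.92), Ppp1r26 (0.91) and LOC102546678 (0.91), for Oprk1 Gpr101 (0.84), Nhs (0.82) and Klhl13 (0.81), for Oprm1 Clcn5 (0.83), Cds2 (0.82) and Dnajb14 (0.82), and for Oprd1 Pwp2 (0.72), Tef (0.71) and Add2 (0.70). The 99th percentile of r over all genes compared was 0.62 for Penk and 0.39 for Pdyn.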

How the data were processed

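Hypothalamic RNA of 65 rats was sequenced by the authors from stranded poly-A libraries (75 nt, single end), trimmed with cutadapt, mapped with STAR 2.7.2b to Rnor_6.0 and counted strand-specifically with featureCounts 1.6.4. Reads with several places counted as fractions, so the values deposited by the authors are estimated counts per gene, not normalized. 30.3% of nonzero values were not whole at a tolerance of 1e-06, and all were rounded. The submitters' processing notes name these tools. The combined exon length deposited by the authors is in bases.

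Groups and batches came from the labels. The members and lists were chosen with earlier results of these data known. edgeR 4.0.16 in R 4.3.3 fitted quasi-likelihood models with group and batch terms to TMM-scaled counts of 21871 genes kept by filterByExpr (minimum count 10, minimum total 15), and p was adjusted by Benjamini-Hochberg over all of them, with a threshold of 0.05. Within-batch values came from a model with 1 term per group and batch (22207 genes). The study's methods state DESeq2, which was run as an alternative (1.42.0), and no batch term is given in the sources used here. Named were the 7 members, up to 5 called genes per list and comparison with the smallest adjusted p, and the 3 genes most like each member. Intervals cover the spread between animals, and a limit at 0 covers counting error only. The scripts were tested on simulated data. The alternatives were another scaling, no filter, no batch term, a replicate term, marker scores, libraries left out and saline as control. Correlations used 100000 permutations. No libraries were identical. Same-numbered liraglutide and saline libraries correlated in all 5 cases (r from 0.24 to 0.53, relative to group means only). Saline replicates 1, 2 and 3 were in batch A and all liraglutide animals in batch B, so these numbers cannot be read as pairs of animals. The labels name no shared origin.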

Additional observations from a re-analysis of the deposited data

Results flagged for a closer look

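In groups of 4 to 10 animals of 1 batch, 7 single libraries lay far from the rest of their group for a member, by the gap to the next library over the range of the group. Among 63 groups tested, chance flags about 1 in 20. BWM replicate 1 was the highest of 7 for Pdyn (191 CPM, next 79.1), Penk (1447 CPM, next 501) and Oprd1 (2.98 CPM, next 0.599). That library had the highest striatal marker sum of all. Saline replicate 8 was the highest of 5 for Penk (983 CPM, next 323), and its striatal sum was 2200 CPM. PYY3-36 + liraglutide replicate 1 was the highest of 5 for Pdyn (165.0 CPM, next 95.9). Sham replicate 1 was the highest of 5 for Oprm1 (2.61 CPM, next 0.315), with a thalamic marker sum of 1500 CPM. PYY3-36 replicate 2 was the lowest of 4 for Oprl1 (13.4 CPM, next 37.6). The part of these markers in the values was not tested.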

How the results depend on the processing

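Of the settings other than leaving out 1 animal, 626 results stayed on their side of the threshold, 10 newly passed and 8 were lost; of those leaving out 1 animal, 1895, 4 and 12. No called value changed sign. Log2 fold changes that were not called did so in 54 and 54 cases, among them Oprk1 (-0.11 within batch B) and Pdyn (0.05 within batch A) for RYGB vs. sham. For RYGB vs. sham without the batch term, Penk gave -1.13 and Oprd1 1.38, and lean vs. sham gave 1.87 for Oprd1, all called. With marker scores as covariates Oprd1 gave 1.65 for RYGB vs. sham, and Oprm1 -1.02 between batches. Oprl1 for RYGB vs. sham was no longer called within batch A (0.63), within batch B (0.94) or with saline in place of sham (0.30). Leaving out the 3 libraries of highest striatum score was chosen after seeing the data: it gave Oprl1 0.54 and Oprd1 1.70 for RYGB vs. sham, an adjusted p of 0.032 for Oprd1 over the 8 groups, and between batches Penk 0.42, Pnoc 0.38 and Oprd1 -1.07. Between batches Penk was 0.68 without the low-count filter, and Pdyn 0.50 without the libraries that stand apart. The causes were not tested.

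Replicate numbers were shared by label only, and the replicate block changed no call for liraglutide vs. saline. Outside that comparison same-numbered libraries correlated between -0.36 and 0.54. With the replicate block, Oprl1 for RYGB vs. sham was 0.59 (edgeR adjusted p = 0.14) and Penk between batches 1.19, neither called, and 1529 genes were called for RYGB vs. sham.

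Leaving out 1 animal gave 0.62 to 0.81 for Oprl1 in RYGB vs. sham, 0.63 to 0.93 in RYGB vs. BWM, an adjusted p of 0.048 to 0.18 for Oprl1 over the 8 groups, and between batches 0.58 to 0.78 for Penk and 0.32 to 0.47 for Oprk1 (called without saline replicate 4 or sham replicate 4).

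Counts of called genes moved more. RYGB vs. sham called 2853 genes, 5587 without the batch term, 605 within batch B, and 1470 (without sham replicate 5) to 4938 (without RYGB replicate 11). BWM vs. sham called 70, 2183 without the batch term, 2 with the block, 3 with scores, 0 without the libraries that stand apart, 237 by DESeq2, 1179 within batch A, 428 without the 3 libraries, and 5 to 408 leaving out 1 animal (BWM replicates 5 and 1). RYGB vs. BWM called 75, 1 with the block, 15 with scores, 2 without the libraries that stand apart, 45 within batch A, and 2 to 166 (BWM replicates 5 and 4). Lean vs. sham called 0, 2339 without the batch term, 427 without the libraries that stand apart, 27 within batch A, 10 without the 3 libraries, and up to 1081 (lean replicate 6). Sham vs. saline called 3, 28 by DESeq2, and 1 to 186 (sham replicate 1). The hormone comparisons called at most 9 under any setting. Low counts limit Oprm1 and Oprd1.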
